A study of Homo sapiens with 9 samples.

Results

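The genes described here are those of the ATF4 amino acid stress response, measured in LAN-5 cells, an established human neuroblastoma line. Members were taken by gene symbol from the table that pairs probe sets with genes, for 10 named genes: ASNS, SLC1A4, SLC7A5, SLC3A2, PSAT1, PHGDH, DDIT3, ATF3, ATF4 and TRIB3. As a sole symbol the table held 9 of the 10, each with 1 probe set, out of 7713 genes and 8746 probe sets in all. DDIT3 was not analysed here. The 388 probe sets listed with several symbols were not taken as members. All 9 probe sets lay above the intensity filter that left 5830 probe sets for testing. There were 9 Affymetrix 1-colour arrays in 3 groups of 3: untreated cells, and cells exposed to S100B at either 0.5 nM or 5 µM. The 3 arrays in each group are biological replicates by the series' design text. S100B, a small EF-hand protein released by astrocytes, is a ligand of the receptor RAGE. All 3 groups are the same cell line with no other treatment named, and the exposure time is not given in the sources used here. A single line stands for the tumour type, so nothing measured here separates the line from neuroblastoma in general. Of the 13 listed noradrenergic neuroblastoma markers that had a probe set, 12 lay above the filter, against 6 of 12 mesenchymal and Schwann-like markers, 7 of 10 leukocyte, 4 of 8 epithelial and 3 of 7 astrocyte and oligodendrocyte markers. The filter kept 5830 of all 8746 probe sets whatever their genes, so a marker above it is not thereby shown to be expressed.

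When amino acids run short or the endoplasmic reticulum is loaded with unfolded protein, kinases phosphorylate the initiation factor eIF2, general translation slows, and the ATF4 mRNA is translated more through its upstream open reading frames. ATF4 protein then binds DNA elements that combine a C/EBP site with an ATF site, and induces amino acid transporters, enzymes of asparagine and serine synthesis, tRNA synthetases and further transcription factors. Because this control acts on translation, the ATF4 transcript can stay level while its targets move. In neuroblastoma with amplified MYCN, MYCN and ATF4 are known to drive the serine and glycine synthesis enzymes together.

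The DNA element through which ATF4 acts was looked for in the promoter windows of its genes, to show which members carry it close to a start site. The letters searched were TGATGNAA, or TTNCATCA on the other strand, the core of the C/EBP and ATF composite element. Each RefSeq window runs from 250 bases before to 50 bases after an annotated start (build GRCh38.p14), and a gene may have several. All 10 named genes had a window, DDIT3 included, and 4 of the 10 held a match, in 4 of their 19 windows (21.1%). Over all genes with a window 1217 of 27305 (4.46%) held one, and 3.62% of all 35116 windows did. The 4 matches are printed 5′ to 3′ on the strand of the gene, with the matched letters in capitals.
ASNS: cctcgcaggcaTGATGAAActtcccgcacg
SLC1A4: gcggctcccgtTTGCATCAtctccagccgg
SLC3A2: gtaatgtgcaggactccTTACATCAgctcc
ATF3: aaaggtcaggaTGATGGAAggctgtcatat
The ASNS stretch lies at chr7:97872458-97872487 on the minus strand, and its match begins 68 bases before the start. The SLC1A4 stretch is at chr2:64989381-64989410 on the plus strand. Its match begins 7 bases before a start and ends on the first base of the transcript. That of SLC3A2, at chr11:62881719-62881748 on the plus strand, begins at base 38 of the transcript and so lies after the start. That of ATF3, at chr1:212565205-212565234 on the plus strand, begins 191 bases before a start. Each of these 4 genes has a further annotated start whose window held no match, and no match was found in the windows of SLC7A5, PSAT1, PHGDH, DDIT3, ATF4 or TRIB3, which says only that these letters are not in those windows.

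No member passed the test at either dose. At 5 µM against untreated cells 0 of 9 members passed limma's threshold, an adjusted p under 0.05 over all 5830 probe sets, where 0.292% of all probe sets did. At 0.5 nM against untreated 0 of 9 passed, where 0% of all did. Between the doses 0 of 9 passed, against 0.257% of all. A test over the 3 groups at once, limma's F test, also called 0 of 9, against 0.24% of all. At limma's unadjusted p under 0.05 there were 0 members for 5 µM against untreated, where 6.84% of all probe sets passed, 5.35% lower and 1.49% higher. There was 1 member for 0.5 nM against untreated, SLC1A4, lower, where 3.29% of all passed, 2.49% lower and 0.806% higher. After quantile normalization ASNS also had an unadjusted p under 0.05 there. The 192 probe sets behind the 3.29% became 438 without 0.5 nM replicate 1 and 107 without untreated replicate 2. Between the doses there was 1, ASNS, higher at 5 µM, where 4.65% of all passed, 2.92% lower and 1.73% higher, and SLC1A4 joined it with no filter, without untreated replicate 1 or without untreated replicate 3. The 271 probe sets behind the 4.65% became 444 without 0.5 nM replicate 1. The F test gave these same 2 genes, ASNS and SLC1A4, against 4.84% of all.

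The 95% intervals say how large a change these arrays could have missed. Differences are given on the log2 scale, as the first group minus the second. At 5 µM the intervals of all 9 members lay between -0.25 and 0.31, that is, between 84.1% and 123.9% of the untreated level, the lower bound being that of TRIB3 and the upper that of PSAT1. At 0.5 nM they lay between -0.32 (SLC1A4) and 0.25 (PSAT1), or 80.1% to 119.3% of untreated. Between the doses they lay between -0.27 (TRIB3) and 0.35 (ASNS), or 82.7% to 127.1% of the level at 0.5 nM. A 2-fold rise of any of the 9 was thus outside its interval in each comparison. These intervals are not adjusted for the number of genes, and the array method may compress differences of dim probe sets, which was not tested.

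**Figure D1:**
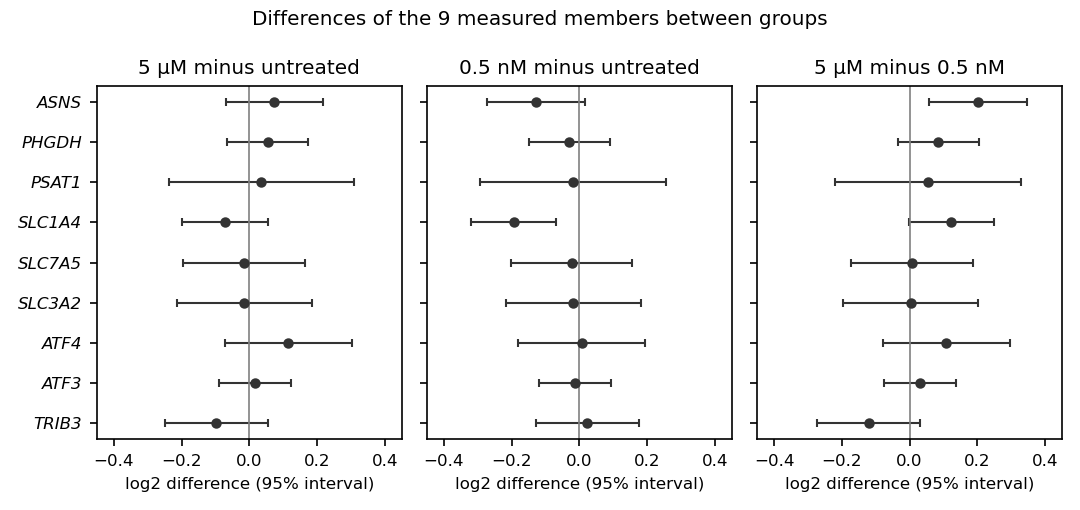
Differences of the 9 members between groups, in log2 on the horizontal axis, 1 panel for each comparison, with points for limma's estimate and bars for its 95% interval. The bars of SLC1A4 at 0.5 nM against untreated and of ASNS between the doses do not cross 0, and the widest bars are those of PSAT1.

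Asparagine synthetase, ASNS, converts aspartate to asparagine and is the usual reporter of the amino acid response. Its log2 value was 10.72, 10.66 and 10.65 in untreated replicates 1 to 3, 10.57, 10.61 and 10.46 at 0.5 nM, and 10.65, 10.84 and 10.76 at 5 µM. All 3 arrays at 0.5 nM lay below all 6 others, while the untreated and 5 µM arrays overlapped. After median centring the 0.5 nM arrays overlapped with the untreated ones. Of all probe sets as deposited, 5.01% lay below untreated at 0.5 nM without overlap, and 2.35% lay higher at 5 µM than at 0.5 nM. The share with both was not counted. The deposited means of ASNS were 10.67 ± 0.04 (SD, n = 3) untreated, 10.55 ± 0.08 (SD, n = 3) at 0.5 nM and 10.75 ± 0.10 (SD, n = 3) at 5 µM. The difference was 0.07 ± 0.06 (SE) at 5 µM against untreated (limma's adjusted p = 0.875) and -0.13 ± 0.06 (SE) at 0.5 nM (adjusted p = 0.99989). Between the doses ASNS was 0.20 ± 0.06 (SE) higher at 5 µM, 1.15-fold with an interval of 1.04 to 1.27, with an unadjusted p of 0.0103 that did not pass over all probe sets (limma's adjusted p = 0.871). Leaving out each array in turn moved that difference between 0.16 and 0.25, with 0.16 both without 5 µM replicate 2 and without 0.5 nM replicate 3, and the highest without 5 µM replicate 1.

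PHGDH catalyses the first step of serine synthesis from a glycolytic intermediate, and PSAT1 the second. PHGDH was at 9.58, 9.52 and 9.43 in untreated replicates 1 to 3, 9.45, 9.50 and 9.50 at 0.5 nM, and 9.56, 9.56 and 9.57 at 5 µM. The 5 µM arrays lay above all 3 arrays at 0.5 nM and within the range of the untreated ones. The differences were 0.06 ± 0.05 (SE) at 5 µM and -0.03 ± 0.05 (SE) at 0.5 nM against untreated, and 0.08 ± 0.05 (SE) between the doses, none past the threshold (limma's adjusted p of 0.898, 0.99989 and 0.994). The 5 µM arrays spanned only 9.56 to 9.57, with an SD of 0.0095 against 0.08 in untreated cells.

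PSAT1 was at 10.06, 9.81 and 9.62 in untreated replicates 1 to 3, 9.97, 9.86 and 9.61 at 0.5 nM, and 9.95, 9.95 and 9.69 at 5 µM. Replicate 3 was the lowest array in each of the 3 groups, and all 3 groups overlapped. Its SD within groups was 0.19, larger than that of 94.6% of the probe sets tested, whose median SD was 0.09. The differences were 0.04 ± 0.12 (SE) at 5 µM and -0.019 ± 0.12 (SE) at 0.5 nM against untreated, the latter above 0 after median centring, and neither passed (limma's adjusted p of 0.98 and 0.99989).

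SLC1A4, which encodes the neutral amino acid exchanger ASCT1 that carries serine and alanine, had the smallest p of any member. Its probe set was dim, with a mean of 6.72, 0.77 log2 above the filter limit, where the array medians were 6.60 to 6.64. SLC1A4 was at 6.73, 6.81 and 6.89 in untreated replicates 1 to 3, 6.58, 6.63 and 6.63 at 0.5 nM, and 6.70, 6.79 and 6.73 at 5 µM. As for ASNS, all 3 arrays at 0.5 nM lay below all 6 others, a pattern whose share of all probe sets was not counted. The difference at 0.5 nM was -0.19 ± 0.06 (SE), or 0.87-fold with an interval of 0.80 to 0.95, with an unadjusted p of 0.00613 and limma's adjusted p = 0.99989. At 5 µM against untreated it was -0.07 ± 0.06 (SE) (adjusted p = 0.841), and between the doses 0.12 ± 0.06 (SE) (adjusted p = 0.994). Leaving out each array in turn gave -0.24 to -0.15 for 0.5 nM against untreated, the ends being the fits without untreated replicates 1 and 3, and the adjusted p ran from 0.591 to 1 over all 16 other settings tried. SLC1A4 was known to stand near the top of the 0.5 nM comparison when the members were chosen.

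SLC7A5 encodes LAT1, the transporter of leucine and other large neutral amino acids, and SLC3A2 encodes 4F2hc (CD98), the heavy chain that brings it to the plasma membrane. SLC7A5 was at 8.86, 8.78 and 8.99 in untreated replicates 1 to 3, 8.83, 8.96 and 8.77 at 0.5 nM, and 8.81, 8.77 and 9.01 at 5 µM. SLC3A2 was at 8.55, 8.25 and 8.35 in untreated replicates 1 to 3, 8.48, 8.39 and 8.23 at 0.5 nM, and 8.44, 8.41 and 8.26 at 5 µM. For both genes each pair of groups overlapped, and the order of the 3 means has no support from the spread. The differences from untreated were -0.017 ± 0.08 (SE) for SLC7A5 and -0.014 ± 0.09 (SE) for SLC3A2 at 5 µM, and -0.023 and -0.018 at 0.5 nM, all 4 above 0 after median centring (limma's adjusted p of 0.984, 0.985, 0.99989 and 0.99989).

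Among the transcription factors, ATF4 itself was at 9.99, 9.91 and 9.63 in untreated replicates 1 to 3, 9.78, 9.86 and 9.91 at 0.5 nM, and 9.97, 9.91 and 9.99 at 5 µM. Untreated replicate 3 was the lowest of all 9 arrays, and the remaining arrays lay between 9.78 and 9.99. ATF4 differed by 0.11 ± 0.08 (SE) at 5 µM and by 0.0068 ± 0.08 (SE) at 0.5 nM, which did not pass (limma's adjusted p of 0.83 and 0.99989). Without untreated replicate 3 the difference at 5 µM was 0.01.

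ATF3, a bZIP factor that ATF4 induces and that is known to act as a repressor, was listed at the identical value, 6.60, on 5 of the 9 arrays. The others were untreated replicate 1 at 6.58, 0.5 nM replicates 2 and 3 at 6.61 and 6.53, and 5 µM replicate 3 at 6.63. Such a run of identical values occurred in 82 of 5830 probe sets (1.41%), while 53.2% shared a value between at least 2 arrays, and the SD of ATF3 was smaller than in all but 1.17% of the probe sets tested. Its mean lay 0.65 log2 above the filter limit of 5.95, the smallest margin among the members. The differences of 0.02 ± 0.05 (SE) at 5 µM and -0.014 ± 0.05 (SE) at 0.5 nM, the latter above 0 after quantile normalization or median centring, rest on 5 distinct values (limma's adjusted p of 0.974 and 0.99989).

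TRIB3 encodes a pseudokinase that ATF4 induces and that is known to bind and restrain ATF4. It was at 8.06, 8.16 and 8.08 in untreated replicates 1 to 3, 8.27, 8.04 and 8.06 at 0.5 nM, and 7.94, 8.03 and 8.03 at 5 µM. Of all probe sets, 9.47% lay below untreated at 5 µM without overlap and 4.63% below 0.5 nM, and the share with both was not counted. The 5 µM arrays of TRIB3 were the 3 lowest of the 9, but overlapped with both other groups after quantile normalization. The difference was -0.10 ± 0.07 (SE) at 5 µM against untreated and -0.12 ± 0.07 (SE) against 0.5 nM, which did not pass (limma's adjusted p of 0.827 and 0.994). At 0.5 nM it was 0.02 ± 0.07 (SE) from untreated, and -0.05 without 0.5 nM replicate 1.

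**Figure D2:**
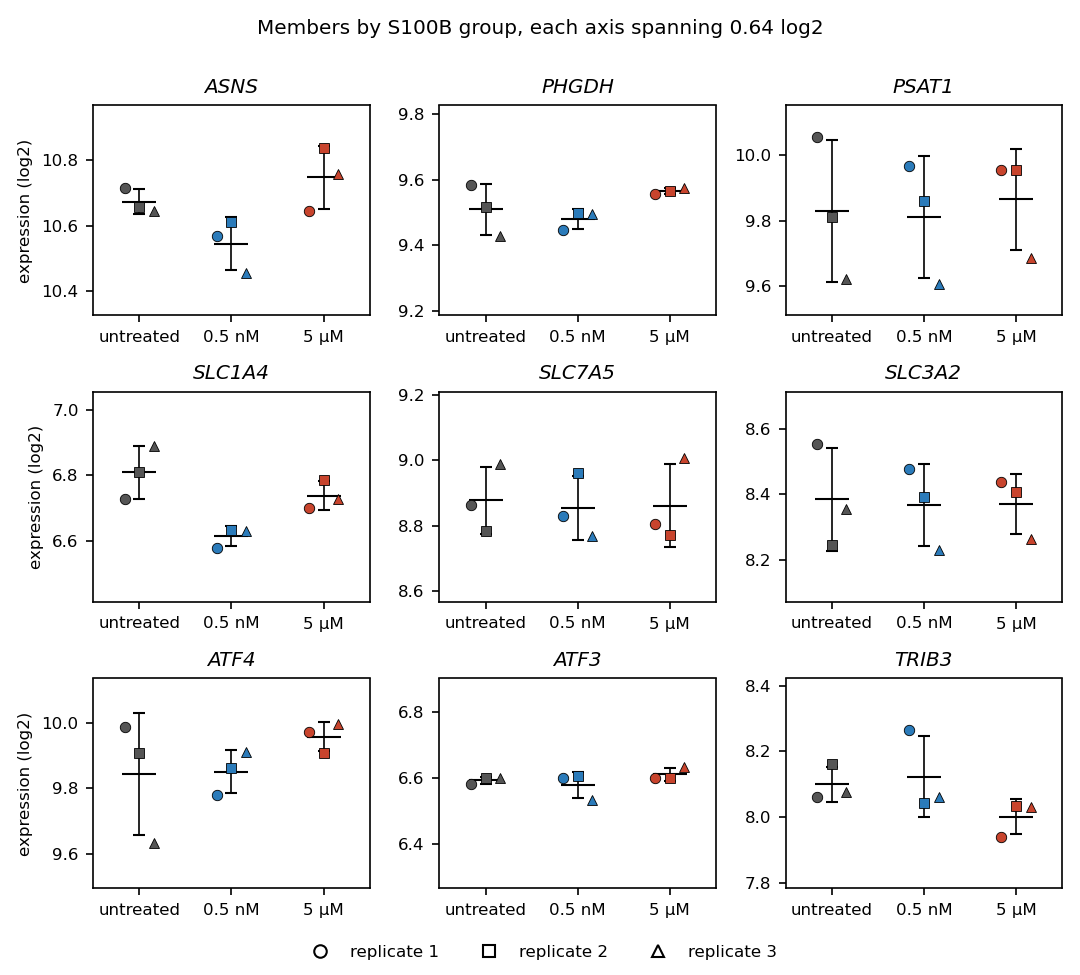
Log2 expression of the 9 members on each array, grouped by S100B dose, with symbols for the replicate number, a line for the mean and bars for the SD of 3 arrays; every vertical axis spans the same width. The 0.5 nM arrays of ASNS and SLC1A4 sit below both other groups, the 5 µM arrays of TRIB3 below both, and replicate 3 of PSAT1 is lowest in each group. How many of all probe sets have 1 group below both others was not counted.

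Groups of arrays that do not overlap can be counted for the members and for all probe sets. At 5 µM against untreated 1 of 9 members did not overlap, TRIB3, lower, against 12.3% of all probe sets, 9.47% lower and 2.86% higher. After quantile normalization TRIB3 overlapped and ATF3, higher at 5 µM, was the 1 member that did not. After median centring neither TRIB3 nor ATF3 overlapped. Untreated replicates 2 and 3 and 5 µM replicates 1 and 2 held the same deposited ATF3 value, 6.60, so only the rescaling separated these arrays. At 0.5 nM against untreated there were 2 of 9, ASNS and SLC1A4, both lower, against 6.98% of all, 5.01% lower and 1.97% higher. Between the doses there were 4 of 9, with ASNS, SLC1A4 and PHGDH higher at 5 µM and TRIB3 lower, also against 6.98% of all, 2.35% higher and 4.63% lower. After quantile normalization and after median centring ASNS, SLC1A4 and PHGDH still did not overlap between the doses, while ASNS overlapped between 0.5 nM and untreated after median centring. The group mean was lowest in untreated cells for ATF4 (23.7% of all probe sets) and at 5 µM for TRIB3 (42.7% of all). It was lowest at 0.5 nM for the other 7 of 9 members, against 33.6% of all, but for 5 members after quantile normalization and 3 after median centring (ASNS, SLC1A4 and PHGDH). A difference between the doses was above 0 for 8 of 9 members (45% of all), for 5 of 9 at 5 µM against untreated (38.1% of all) and for 2 of 9 at 0.5 nM (40.9% of all). These counts moved with the scaling, to 8, 6 and 4 after quantile normalization and to 7, 7 and 6 after median centring. The shares of all probe sets in this paragraph hold only for the values as deposited. The median difference of the members was 0.02 at 5 µM (all probe sets, -0.024), -0.019 at 0.5 nM (-0.016) and 0.05 between the doses (-0.0089). In the same order, the medians of all probe sets became 0.0022, -2.5e-05 and 0.00028 after quantile normalization. After median centring they were -0.00060, 0.011 and -0.013. The last 2 comparisons share the 0.5 nM arrays and the first 2 the untreated arrays, so these counts are not independent of each other.

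Correlation of ASNS with each other member across the 9 arrays was tested with exact two-sided permutation tests, 8 pairs in all. None passed after adjustment: Pearson's r was highest for ATF3 at 0.66 (permutation p = 0.0592, adjusted p = 0.305) and PHGDH at 0.61 (permutation p = 0.0762, adjusted p = 0.305). Spearman's rho for these was 0.29 (permutation p = 0.45, adjusted p = 0.683) and 0.76 (permutation p = 0.0213, adjusted p = 0.17). SLC1A4 had r = 0.53 (permutation p = 0.141, adjusted p = 0.376) and rho = 0.67 (permutation p = 0.0525, adjusted p = 0.21). The remaining members had r of 0.37 for PSAT1, 0.28 for ATF4, 0.24 for SLC3A2, 0.17 for SLC7A5 and -0.29 for TRIB3, with rho of 0.21, 0.43, 0.16, 0.18 and -0.35. Across all 5829 other probe sets r with ASNS ran from -0.57 to 0.60 between the 5th and 95th percentiles. Without 0.5 nM replicate 3 and 5 µM replicate 2, the arrays farthest from the median of ASNS, r was 0.75 for PHGDH, 0.59 for ATF4, 0.40 for SLC1A4 and 0.35 for ATF3. The rho of ATF4 was then 0.79 (permutation p = 0.0397, adjusted p = 0.229). Taken as deviations from the group means, r was 0.24 for PHGDH, 0.05 for SLC1A4 and 0.50 for ATF3, and none of the 8 pairs passed. After median centring PHGDH had rho = 0.83 (permutation p = 0.00827, adjusted p = 0.0661) and TRIB3 rho = -0.73 (permutation p = 0.0311, adjusted p = 0.1245). ATF3 then had r = 0.67 (permutation p = 0.0493, adjusted p = 0.291), and again none of the 8 pairs passed.

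**Figure D3:**
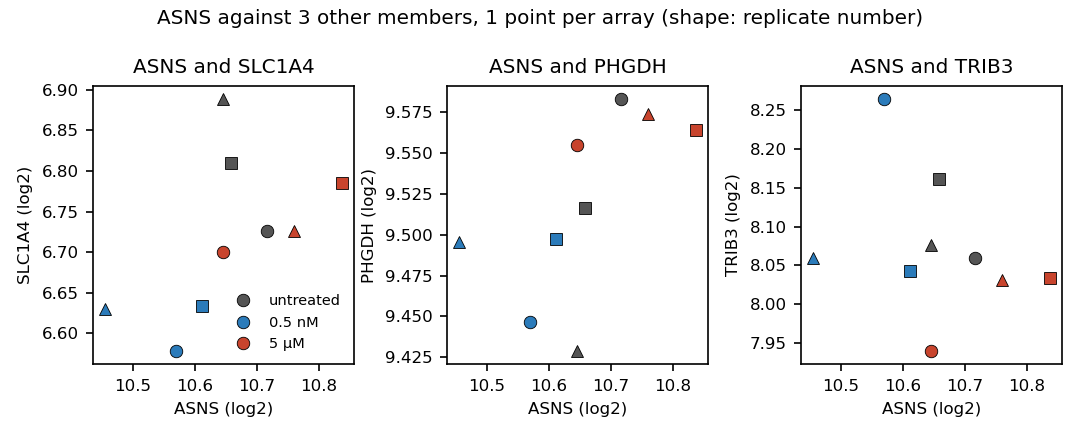
ASNS on the horizontal axis against SLC1A4, PHGDH and TRIB3 on the vertical axes, all in log2, with 1 point for each of 9 arrays, colour for the dose and shape for the replicate number. The 3 arrays at 0.5 nM lie at the left in each panel, and within a dose the points of ASNS and SLC1A4 show little common slope (r of 0.05 for deviations from the group means).

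The genes whose profile over the 9 arrays was most like the mean of the members, out of 5138 others, were ENO3 (Pearson's r = 0.96), SOCS2 (0.95), RNF8 (0.93), the seryl-tRNA synthetase SARS1 (0.92) and KRT10 (0.92). Those most like ASNS were ZBED5 (0.94), FKBP1B (0.92), RNF11 (0.92), EIF2S1 (0.91) and SLC14A2 (0.89). They were picked as the highest of many, so the values are descriptions. SARS1 was at -0.08 ± 0.08 (SE) at 0.5 nM and 0.08 ± 0.08 (SE) at 5 µM against untreated, and did not pass in either.

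Other genes of the response were taken from 10 lists of 173 genes, of which 107 were measured above the filter. Of these 107, 0 passed limma's threshold at 5 µM, at 0.5 nM or between the doses, with 9, 3 and 5 at an unadjusted p under 0.05, or 8.41%, 2.8% and 4.67% of the 107, against the 6.84%, 3.29% and 4.65% of all probe sets given above. Over all 112 probe sets of the listed genes above the filter the counts were also 9, 3 and 5. There they moved with single arrays: the 9 became 3 without untreated replicate 3, and the 3 and 5 became 7 and 12 without 0.5 nM replicate 1. Upstream of ATF4, 10 genes had a median difference of 0.0034 at 5 µM and -0.0011 at 0.5 nM. They were genes of eIF2, its kinases EIF2AK1 and EIF2AK2, its phosphatase (PPP1CA and PPP1R15A) and its exchange factor eIF2B. The kinases EIF2AK3 and EIF2AK4 were not among these 10, so their transcripts are not described here. EIF2S1, the phosphorylated subunit of eIF2, was at 0.05 and -0.07. EIF2AK1, the haem-regulated eIF2 kinase, was at -0.019 and the eIF2B subunit EIF2B3 at -0.05 at 5 µM.

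Of 10 measured bZIP factors that partner ATF4 or share its sites, the median was -0.020 at 5 µM. CEBPB, the partner in composite elements, was at 0.20 ± 0.09 (SE) with an unadjusted p of 0.039 and limma's adjusted p = 0.707. ATF2 was at -0.22 and CEBPA at -0.08. Of 10 effectors downstream of ATF4 the median was 0.01. VEGFA, an angiogenic factor that hypoxia also induces, was at 0.35 ± 0.10 (SE) (adjusted p = 0.407), and the death receptor TNFRSF10B, which p53 also induces, at 0.17 ± 0.06 (SE) (adjusted p = 0.582). The 5 µM arrays of both lay above all untreated ones, as for 2.86% of all probe sets. At 0.5 nM TNFRSF10B was at 0.13, also above all untreated arrays, as for 1.97% of all. XPOT, the exportin of tRNA, was at -0.10 and the secreted hormone STC2 at -0.04 at 5 µM.

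Among genes of amino acid handling outside the members none passed either. The 10 other amino acid transporters had a median of -0.014 at 5 µM, with the glycine transporter SLC6A9 at -0.12, and SLC7A8 and SLC7A7, light chains that pair with SLC3A2, at 0.10 and -0.07. In 10 genes of serine, glycine and one-carbon metabolism the median was -0.012, and PSPH, which completes serine synthesis after PSAT1, was at 0.09 ± 0.09 (SE) (adjusted p = 0.898). GART, a purine synthesis enzyme that uses one-carbon units, was at -0.13 and AMT of the glycine cleavage system at -0.15. In 16 other amino acid enzymes the median was -0.06, with 3 of the 16 lower at an unadjusted p under 0.05, where 5.35% of all probe sets were: ornithine decarboxylase ODC1 at -0.14 ± 0.05 (SE), and the aspartate aminotransferases GOT2 at -0.14 ± 0.06 (SE) and GOT1 at -0.12 ± 0.05 (SE), none of which passed (limma's adjusted p of 0.613, 0.7 and 0.721). PYCR1, a proline synthesis enzyme, was at -0.11 at 5 µM and -0.14 at 0.5 nM (limma's adjusted p of 0.753 and 0.99989). Its arrays of both doses lay below all untreated arrays, as for 9.47% of all probe sets at 5 µM and 5.01% at 0.5 nM. These 2 comparisons share the untreated arrays and are not independent.

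The 16 genes of the cytosolic tRNA synthetases and their scaffold protein AIMP1 had a median of 0.02 at 5 µM and 0.0050 at 0.5 nM, with EPRS1 at -0.10, HARS1 at 0.09, IARS1 at -0.08 and GARS1 at 0.06 at 5 µM. The 12 endoplasmic reticulum chaperones and sensors had a median of -0.015, and XBP1, the factor made active by IRE1 splicing, was at 0.15 ± 0.06 (SE) (adjusted p = 0.7), with ERN1, which encodes IRE1, at -0.12. In 8 genes of mTORC1 and amino acid sensing the median was 0.04, and the Rag GTPase RRAGD was at 0.09 at 5 µM and -0.12 at 0.5 nM. Between the doses RRAGD was at 0.21 ± 0.07 (SE) (adjusted p = 0.853), and its arrays at 5 µM lay above those at 0.5 nM, as for 2.35% of all probe sets. Of 5 genes of the MYC family and partners the median at 5 µM was 0.05, with MYC at -0.27 ± 0.09 (SE) (adjusted p = 0.607) and MYCN at 0.05 ± 0.06 (SE) (adjusted p = 0.92). The MYC antagonists MXI1 and MNT were at 0.13 ± 0.06 (SE) and 0.24 ± 0.12 (SE), and MLX at -0.15 ± 0.08 (SE). None of these passed (limma's adjusted p of 0.724, 0.753 and 0.756). Over all probe sets the median was -0.024 at 5 µM and -0.016 at 0.5 nM.

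**Figure D4:**
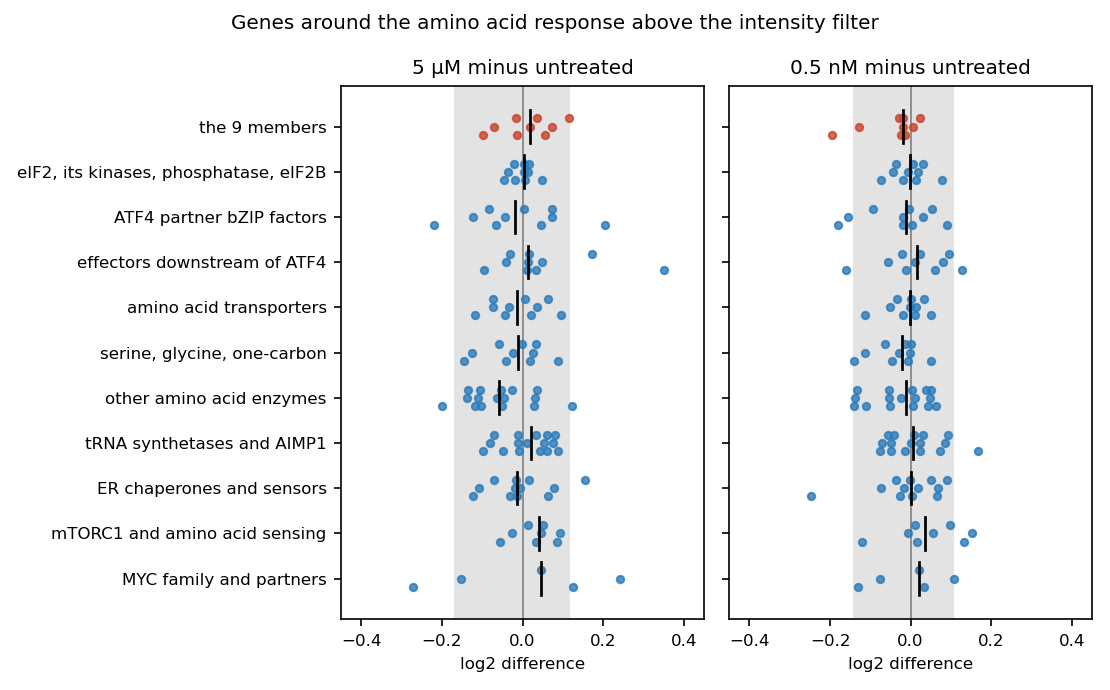
Log2 differences from untreated cells at 5 µM (left) and 0.5 nM (right) for the 9 members and the genes of 10 lists above the filter, 1 point per gene, with a black line at each median and a grey band from the 5th to the 95th percentile of all 5830 probe sets. The medians sit near 0 at both doses, and single genes such as VEGFA at 0.35 (5 µM) lie outside the band without passing the threshold.

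Every pair of arrays correlated at 0.993 to 0.997 across tested probe sets. The 18 spike-in controls averaged 8.70 on untreated replicate 1, below the 9.04 to 9.45 of the other arrays, and without that array the differences at 0.5 nM were -0.11 for ASNS and -0.24 for SLC1A4. The 3′ minus 5′ signal of the GAPDH control, a measure of RNA integrity, ran from 0.20 to 0.40 and that of ACTB from -0.16 to 0.14 over the 9 arrays. The mean level of the 13 noradrenergic markers ran from 9.72 to 9.95 in untreated arrays, 9.91 to 9.93 at 0.5 nM and 9.86 to 10.03 at 5 µM, so these groups overlapped. For the epithelial list it was 5.86 to 5.93, 5.84 to 5.86 and 5.80 to 5.84, with all 3 arrays at 5 µM below all 6 others by a narrow gap, 5.8423 against 5.8433. All of these means lay below the filter limit of 5.95, and only 4 of the 8 genes lay above it. The part of such markers in the members' values was not tested. RefSeq lists pseudogenes of ASNS, PSAT1, ATF4 and SLC7A5, and 6 of the 9 member probe sets (ASNS, SLC1A4, SLC7A5, SLC3A2, ATF3 and PSAT1) carry the suffix for probes shared between transcripts, so their signal may not come from 1 gene alone. Fewer cells with a transcript and less of it per cell cannot be told apart in these bulk RNA samples.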

How the data were processed

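The authors deposited log2 values, 1 for each probe set on each array. The submitters' processing notes name GCRMA and give no version for it; the log2 scale was read from the values (4.37 to 14.5). GCRMA corrects background, normalises between arrays and summarises probes. Replicate and group came from the titles. Of 8793 probe sets, 47 controls and the dimmest 33.3% by mean over all arrays (2916, mean at or below 5.95) were left out, leaving 5830. Symbols came from the platform annotation. Groups were compared with limma 3.58.1 in R 4.3.3 (lmFit, eBayes, 1 factor of 3 groups, all 9 arrays), with Benjamini-Hochberg adjustment over 5830 probe sets and a threshold of 0.05. With 3 arrays against 3 an exact permutation test cannot go below p = 0.1. The number of arrays limits the precision.

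Correlations with ASNS used 362880 permutations over 9 arrays and 5040 over the 7 arrays left without 2 (numpy 2.4.6, Python 3.11.15). Deviations from the group means were permuted only within groups, in 216 ways. The members and lists were chosen with earlier results of these data known. All members are named, and of each list up to 4 genes with the smallest p at 5 µM, or those past the threshold. The 5 genes most like the members' mean and most like ASNS are named too. MYCN, PPP1CA, PPP1R15A, EIF2AK2 and AIMP1 were named outside this rule, after their values were seen. Alternatives were quantile normalization, median centring, other filters, a replicate block, other moderation, fits of 2 groups and leaving out each array.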

Additional observations from a re-analysis of the deposited data

How the results depend on the processing

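In 63 alternative counts of members called, 0 members passed in each, and the smallest adjusted p of a member in any was 0.493. Of 429 member values under alternatives 393 kept their direction and 36 reversed, all of them of differences that had not passed, and the cause was not tested. Median centring turned SLC7A5 to 0.0063 at 5 µM and 0.0038 at 0.5 nM, SLC3A2 to 0.0086 and 0.0092, PSAT1 to 0.0077 and ATF3 to 0.013 at 0.5 nM, and SLC3A2 between the doses to -0.00060. Quantile normalization turned SLC3A2 to 0.025 at 5 µM and 0.0059 at 0.5 nM, and ATF3 to 0.0089 at 0.5 nM. Correlations with ASNS reversed to -0.266 for SLC3A2 and -0.233 for PSAT1 without 2 arrays, and to -0.012 for ATF4 and 0.298 for TRIB3 as deviations from group means.

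Leaving out 1 array at a time gave these ranges where a direction reversed. At 5 µM against untreated they were -0.089 to 0.038 for SLC7A5, -0.084 to 0.070 for SLC3A2 and -0.068 to 0.148 for PSAT1. At 0.5 nM they were -0.077 to 0.031 for SLC7A5, -0.087 to 0.066 for SLC3A2, -0.123 to 0.093 for PSAT1, -0.070 to 0.0075 for PHGDH, -0.027 to 0.0090 for ATF3, -0.098 to 0.079 for ATF4 and -0.048 to 0.063 for TRIB3. Between the doses they were -0.066 to 0.060 for SLC7A5, -0.064 to 0.059 for SLC3A2 and -0.047 to 0.144 for PSAT1. Where no direction reversed, the ranges at 5 µM were 0.029 to 0.125 for ASNS, 0.015 to 0.092 for PHGDH, -0.113 to -0.031 for SLC1A4, 0.0062 to 0.023 for ATF3, 0.010 to 0.187 for ATF4 and -0.118 to -0.067 for TRIB3. At 0.5 nM they were -0.161 to -0.083 for ASNS and -0.236 to -0.154 for SLC1A4. Between the doses they were 0.157 to 0.253 for ASNS, 0.068 to 0.093 for PHGDH, 0.099 to 0.142 for SLC1A4, 0.0085 to 0.045 for ATF3, 0.073 to 0.138 for ATF4 and -0.161 to -0.050 for TRIB3. Over all probe sets the calls ranged from 4 to 17 at 5 µM, from 4 to 15 between the doses and from 3 to 15 for the F test, against 17, 15 and 14 with all arrays. At an unadjusted p under 0.05 the probe sets ranged from 278 to 448 at 5 µM, 107 to 438 at 0.5 nM and 189 to 444 between the doses. Among the 112 probe sets of the listed genes they ranged from 3 to 10, 1 to 7 and 4 to 12. A fit of only the 2 groups called 3 between the doses.

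Replicate numbers were not taken as pairs. Of 9 same-numbered pairs 4 correlated above 0.1 in their deviations (median 0.07), against 4 of 18 other pairs (median -0.10). Arrays numbered 3 correlated with each other at 0.298, 0.330 and 0.299. They were the 3 of 9 arrays that correlated best with both of their own number, and the cause was not tested. With the replicate block the calls over all probe sets were 15, 0 and 15, and 16 for the F test, and 0 members passed. The SE of PSAT1 went from 0.12 to 0.06. ATF3 and SLC1A4 lay closest to the filter limit, 0.65 and 0.77 log2 above it.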
